A study of Homo sapiens with 18 samples.

Results

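The genes examined were 10 that encode serine/arginine-rich (SR) splicing factors and their relatives: SRSF1, SRSF2, SRSF3, SRSF4, SRSF5, SRSF6, SRSF7, SRSF11, TRA2A and TRA2B. An intron belonged to them when at least 1 of its splice sites matched an exon boundary annotated for one of the genes, which gave 109 introns of 233650, in 30 clusters of 51819. SR proteins bind purine-rich and related sequences in exons and help the spliceosome to recognise the splice sites beside them. Most of these genes also carry a poison exon, an exon that brings a premature stop codon, so that a transcript which includes it is broken down by nonsense-mediated decay (NMD). SR proteins are known to promote inclusion of such exons in their own transcripts, and TRA2B is a textbook case of this feedback.

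The samples were SHEP.tet21n cells, a single neuroblastoma cell line in which doxycycline (Dox) switches off a MYCN transgene. MYCN was repressed with 2 µg/mL Dox (MYCN-) or kept expressed under vehicle (MYCN+). All cells were transfected with siRNA, either a non-targeting control (SNRPD3+) or SNRPD3 siRNA #1 or #2 (SNRPD3-), which target a core protein of the Sm ring of the spliceosomal snRNPs. There were 3 libraries in each of the 6 groups, 18 in all, and MYCN-/SNRPD3+ was the wildtype. PSI is the share of a cluster's splice-spanning reads that removed a given intron, so it compares introns of 1 cluster and gives no level of a gene, of MYCN or of SNRPD3. The cell type and the knockdown were therefore not checked here. The number of reads behind a PSI was not given, so the depth was unknown and the spread between libraries was the only error. The study describes its replicates as independent biological replicates, and the labels give only a replicate number.

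Introns were sorted by the transcripts that hold them in GENCODE. Of the 109 introns, 13 spanned a poison exon, so that using them skips it, and 24 led into or out of one. Another 42 were other introns of coding transcripts, 2 occurred only in other NMD transcripts, 11 occurred only in other noncoding transcripts and 17 were not annotated. All 109 had the GT-AG ends of the major spliceosome in hg38. Inclusion of an exon was computed as the mean PSI of its flanking introns over that mean plus the PSI of the intron that skips it. It describes the transcripts present after any decay by NMD, so splicing and decay cannot be told apart in these values.

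The stop codons that these exons bring are shown here because inclusion of the exon puts the stop into the transcript. Each line runs 5′ to 3′ on the sense strand of hg38 and the stop codon is in capitals. The first 5 lines run from the first base of the exon and the last 2 give the 30 bases that end at the stop codon.
SRSF3, 456-base exon, chr6:36599821-36600276, plus strand: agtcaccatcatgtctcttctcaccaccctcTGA
SRSF7, 449-base exon, chr2:38748898-38749346, minus strand: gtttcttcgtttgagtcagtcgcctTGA
SRSF11, 109-base exon, chr1:70231095-70231203, plus strand: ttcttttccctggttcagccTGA
SRSF11, 117-base exon, chr1:70231859-70231975, plus strand: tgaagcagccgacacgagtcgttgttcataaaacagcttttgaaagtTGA
TRA2B, 276-base exon, chr3:185931577-185931852, minus strand: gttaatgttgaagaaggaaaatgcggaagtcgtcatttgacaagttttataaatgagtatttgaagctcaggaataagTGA
SRSF6, 268-base exon, chr20:43459153-43459420, plus strand: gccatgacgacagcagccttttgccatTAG
TRA2A, 312-base exon, chr7:23522121-23522432, minus strand: aaaaaattgaacagaagattggtcagaTAG

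Read in the frame of the coding transcript, the stop in the SRSF3 exon came after 124 codons of a 164-residue protein, in SRSF6 after 135 of 344 and in SRSF7 after 137 of 238. The SRSF11 exons of 109 and 117 bases stopped the frame after 119 and 128 codons of 484. The stops came earliest in TRA2B, after 38 codons of 288, and in TRA2A, after 59 of 282. In these 7 exons the stop lay between 534 and 1015 bases upstream of the last exon-exon junction, the arrangement that NMD is known to detect. The 104-base SRSF2 exon (chr17:76735772-76735875, minus strand) differs, because it lies in the 3′ UTR, after the normal stop, and adds an exon junction there. The 312-base TRA2A exon is annotated only in a transcript with no defined coding sequence, so it did not meet the rule for a poison exon, an exon of an NMD transcript that no coding transcript holds. It and 2 more TRA2A exons, of 301 and 90 bases, which stand in other coding transcripts, were added after their values were seen because inserting them into the main coding transcript brings a stop codon. With the SRSF2 exon and the 6 other poison exons listed, this made 10 exons whose inclusion was measured against joining of the neighbouring coding exons. The 301- and 312-base TRA2A exons are forms of 1 exon with the same skipping intron. SRSF11 has 3 further measures whose skipping intron starts or ends at another poison exon. They are for a 62-base poison exon (chr1:70230557-70230618) joined to the 109-base exon and for the 109- and 117-base exons joined to each other, and are given with that gene. A 33-base SRSF11 exon (chr1:70247117-70247149) that also brings a stop was left out of this set for its length, at -0.98 percentage points for MYCN and knockdown together (limma adjusted p = 0.198).

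The hexamer GAAGAA, a purine motif known to be bound by TRA2 proteins, was searched on the sense strand, with overlapping matches counted. It occurred 4 times in the 312-base TRA2A exon, 3 times in the TRA2B exon and once in the SRSF7 exon. It was not found in the exons of SRSF2, SRSF3, SRSF6 and SRSF11 named above. Among 8961 tested exons of 100 to 460 bases in all genes, 12.6% held it at least once. Purines made up 68.3% of the TRA2A exon and 67.4% of the TRA2B exon, against a median of 51.1% in those 8961 exons.

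Each intron and exon was compared on the scale of log2 odds of PSI or inclusion with a limma fit over all genes, and p-values were adjusted over all features tested. Of the members, 80 introns and 20 exon measures had a mean from 0.01 to 0.99 and were tested. An exon that can be joined to different neighbours counts once for each pair. The comparisons share libraries, above all the wildtype, so their results are not independent of each other. Exact permutation tests of single values were two-sided and were run for 102 measures in each comparison, with no adjustment. Their smallest possible p was 0.1 for MYCN alone, 0.0119 for 6 libraries against 3, 0.000142 for knockdown over both MYCN states and 0.00025 for MYCN over all siRNAs.

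Libraries of replicate 3 in both MYCN+/SNRPD3- groups stood apart. Their median deviation over all exons was -0.45 log2 odds with siRNA #1 and -0.28 with siRNA #2, while the other 16 libraries lay between -0.12 and 0.20. Values without these 2 libraries are given for part of the results, and their part in the lower inclusion was otherwise not tested.

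Across these genes, 1 intron passed the adjusted threshold of 0.05, a TRA2A intron that leaves its 312-base exon and was used less in MYCN+ cells. For MYCN over all siRNAs that was 1 of 80 introns, against 1.23% of all introns tested, and 0 of 20 exon measures against 5.05% of all exons. For MYCN and knockdown together, MYCN+/SNRPD3- against wildtype, limma called 0 of 80 introns (0.559% of all introns were called) and 0 of 20 exon measures (5.94% of all exons). At an unadjusted p under 0.05 that comparison held 23 of the 80 introns, or 28.8%, beside 11% of all introns, and 8 of the 20 exon measures, or 40%, all lower, beside 22.7% of all exons. Without the 2 libraries that stood apart, those counts were 21 introns, or 26.2%, beside 9.58% of all introns, and 4 exon measures, or 20%, beside 17.5% of all exons. The counts at the unadjusted threshold are descriptions of lists whose introns share clusters.

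The remaining comparisons gave no call among these genes. Limma called 0 introns for MYCN alone (background 0.0543%), with 5 of 80 at an unadjusted p under 0.05 beside 6.19% of all introns, and 0 for knockdown with MYCN repressed (background 0.0138%), with 3 at that p beside 4.69%. It called 0 for knockdown with MYCN expressed (background 0.0196%), with 9 at that p beside 7.06% of all introns, and 0 for knockdown over both MYCN states (background 0.0242%), with 18 at that p beside 7.80%. Without the 2 libraries that stood apart, the count at that p with MYCN expressed was 4, or 5%, beside 6.13% of all introns. Over both MYCN states it was then 11, or 13.8%, beside 6.92%. The interaction, which asks whether knockdown acted differently with MYCN on, called 0 (background 0.0177%), with 0 at that p beside 3.98%, and siRNA #2 against siRNA #1 called 0 (background 0.0183%), with 8 at that p beside 5.38%. Exon measures gave 0 calls in each of these 6 comparisons, with backgrounds of 0.0342% for MYCN alone, 0% for knockdown with MYCN repressed, 0.0456% for knockdown with MYCN expressed, 0% for knockdown over both MYCN states, 0% for the interaction and 0% for the siRNAs. At an unadjusted p under 0.05 those 6 held, in that order, 1, 1, 2, 2, 0 and 0 of the 20 exon measures, beside 8.26%, 6.5%, 13.4%, 15.4%, 4.19% and 6.80% of all exons. These exon counts were no higher than the shares over all exons give for 20 measures.

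Between MYCN+/SNRPD3- and wildtype the introns differed in sign by class. Of the 12 tested introns that skip a poison exon, 10 were used more in MYCN+/SNRPD3- cells, with a median difference of 0.21 log2 odds. Of the 19 tested introns into or out of a poison exon, 16 were used less, with a median of -0.46. The 33 other coding introns had a median of -0.02 and all introns of the series one of -0.01. At an unadjusted p under 0.05 there were 5 skipping introns, all higher, and 8 introns into or out of a poison exon, all lower. Without the 2 libraries that stood apart, 8 of the 12 skipping introns were higher (median 0.11) and 16 of the 19 introns into or out of a poison exon lower (median -0.37). For MYCN alone, 8 of the 12 were higher (median 0.02) and 17 of the 19 lower (median -0.23). For knockdown over both MYCN states, 9 of the 12 were higher (median 0.12) and 14 of the 19 lower (median -0.15). Within a cluster PSI values add to 1, so the directions of both classes are not independent.

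**Figure D1:**
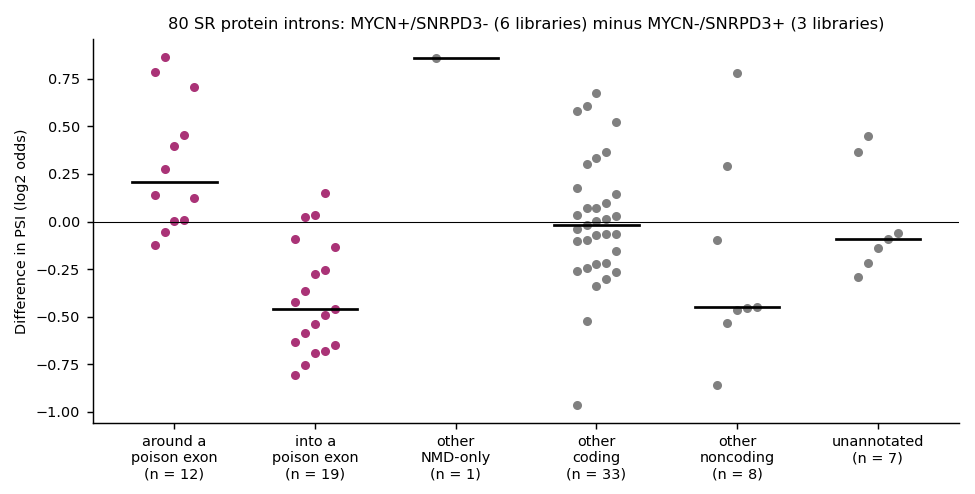
Difference in PSI (log2 odds, limma) between the 6 MYCN+/SNRPD3- libraries and the 3 wildtype libraries for each of the 80 tested introns of the SR protein genes, by class, with the class median as a bar. Introns around a poison exon have a median of 0.21, introns into one a median of -0.46 and other coding introns a median of -0.02.

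The same lean towards lower measured inclusion was found over all genes in the exon fit. The 10 exons had a median of -0.38 log2 odds for MYCN and knockdown together, beside -0.33 for all 17562 exons tested, of which 977 of 1043 calls were lower. For MYCN over all siRNAs the median of the 10 was -0.27 beside -0.15 for all exons, but the 3 TRA2A exons among them were chosen with these values seen. Over the 7 poison exons without them, 6 were lower for MYCN over all siRNAs, with a median of -0.25, and 5 for MYCN and knockdown together, with a median of -0.33. With every pair of neighbours counted, which gave 10 measures of poison exons, 7 were lower in both comparisons, with medians of -0.20 and -0.27. For knockdown over both MYCN states the median of the 10 exons with those of TRA2A was -0.02, beside -0.21 for all exons. It was -0.07 for the 7 poison exons and -0.19 with every pair of neighbours counted. Without the 2 libraries that stood apart, the medians for MYCN and knockdown together were -0.34 for the 10 exons and -0.24 for all exons. Most of the 10 were thus lower in MYCN+/SNRPD3- cells, by a median near that of exons at large.

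Values of MYCN+/SNRPD3- libraries did not overlap those of wildtype for 17 of the 80 introns, 21.2%, beside 6.53% of all introns. Of these, 8 were higher and 9 lower. Inclusion did not overlap for 5 of the 20 exon measures, all lower, beside 13.8% of all exons. These were the SRSF2 exon, the SRSF3 exon, the 312-base TRA2A exon and both measures of the 117-base SRSF11 exon. For knockdown over both MYCN states 1 of 80 introns did not overlap (background 0.0642%) and 0 of 20 exon measures (background 0.251%). For MYCN over all siRNAs the counts were 0 introns (background 0.353%) and 0 exon measures (background 0.746%).

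**Figure D2:**
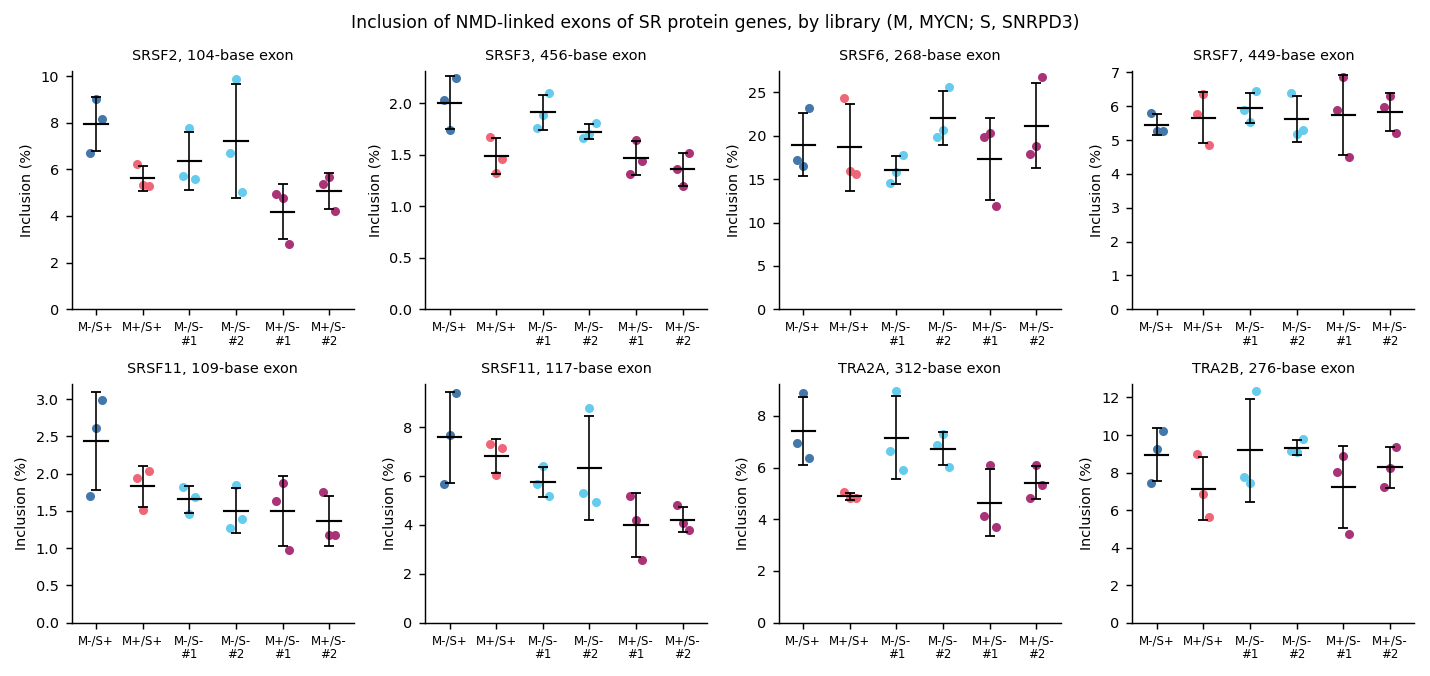
Inclusion (%) of 8 exons of SR protein genes that bring a stop codon or an extra junction, with 1 point per library (3 per group), the group mean as a bar and the SD as whiskers. MYCN+/SNRPD3- points lie below all wildtype points for SRSF2, SRSF3, the 117-base SRSF11 exon and TRA2A, and overlap them for SRSF6, SRSF7, the 109-base SRSF11 exon and TRA2B.

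SRSF2, known as SC35, is a classical SR protein that limits its own mRNA through exons in its 3′ UTR. Inclusion of its 104-base exon was 6.72%, 9.0% and 8.16% in wildtype and 6.24%, 5.32% and 5.30% in MYCN+/SNRPD3+. In MYCN-/SNRPD3- it was 5.72%, 7.78% and 5.58% with siRNA #1 and 6.70%, 9.88% and 5.04% with siRNA #2. In MYCN+/SNRPD3- it was 4.95%, 4.75% and 2.82% with siRNA #1 and 5.38%, 5.66% and 4.19% with siRNA #2. Every MYCN+ library lay below every wildtype library, while the MYCN-/SNRPD3- libraries overlapped both. Against wildtype, MYCN+/SNRPD3- was lower by a difference of -3.33 percentage points (exact permutation p = 0.0119, the smallest possible; -0.74 ± 0.23 log2 odds (SE), limma adjusted p = 0.0724). Over all siRNAs the MYCN+ libraries were -2.22 points from the MYCN- libraries (exact permutation p = 0.001, limma adjusted p = 0.0842). Knockdown over both MYCN states gave -1.08 points (limma adjusted p = 0.471).

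The intron that skips the SRSF2 exon (chr17:76735159-76736153) mirrored it. Its PSI was 87.2%, 83.1% and 84.6% in wildtype, and from 89.0% to 94.3% in the 6 MYCN+/SNRPD3- libraries. These did not overlap, with a difference of 5.95 points (limma adjusted p = 0.16). Introns out of and into the exon, at 6.82% and 4.54% on average over all libraries, were both lower in MYCN+/SNRPD3- without overlap with wildtype. The intron into it (chr17:76735876-76736153) had the smallest knockdown p of the gene, with -0.25 ± 0.13 log2 odds (SE) over both MYCN states and a limma adjusted p of 0.718.

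SRSF3, the smallest SR protein and a known regulator of its own poison exon, had low measured inclusion of its 456-base exon. Inclusion was 2.04%, 1.74% and 2.25% in wildtype, 1.68%, 1.33% and 1.46% in MYCN+/SNRPD3+ and from 1.19% to 1.65% in the 6 MYCN+/SNRPD3- libraries. With MYCN repressed, the 6 knockdown libraries held values from 1.66% to 2.10%. The MYCN+ libraries were therefore the low ones, whichever siRNA they had received, and did not overlap wildtype. Over all siRNAs the difference between MYCN states was -0.44 points (exact permutation p = 0.00025, the smallest possible; limma adjusted p = 0.133), whereas knockdown over both states gave -0.13 points (exact permutation p = 0.152). Its skipping intron (chr6:36598984-36601151) was used in 95.6% to 96.6% of reads in wildtype and 96.8% to 97.6% in MYCN+/SNRPD3- (limma adjusted p = 0.0727 for MYCN over all siRNAs, 0.30 ± 0.07 log2 odds (SE)). The intron into the exon (chr6:36598984-36599820) had the smallest knockdown p of the gene, at -0.10 ± 0.08 log2 odds (SE) and an adjusted p of 0.873 by limma.

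SRSF11, an SR-related protein known to bind the large subunit of U2AF, carries several poison exons in 1 intron of 3712 bases. Inclusion of the 117-base exon was 5.69%, 7.68% and 9.39% in wildtype and 7.32%, 6.05% and 7.14% in MYCN+/SNRPD3+. With knockdown in MYCN- cells it was 5.69%, 6.41% and 5.21% for siRNA #1 and 5.32%, 8.78% and 4.93% for siRNA #2. With knockdown in MYCN+ cells it was 5.17%, 4.21% and 2.58% for siRNA #1 and 4.81%, 4.08% and 3.78% for siRNA #2. All 6 MYCN+/SNRPD3- libraries lay below both control groups, while the MYCN-/SNRPD3- libraries overlapped both.

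Against wildtype the 117-base exon differed by -3.48 points in MYCN+/SNRPD3- (exact permutation p = 0.0119, the smallest possible). On the fitted scale this was -0.80 ± 0.23 log2 odds (SE), with a limma adjusted p of 0.0582, and without the 2 libraries that stood apart it was -3.02 points with an adjusted p of 0.175. Within MYCN+ cells knockdown gave -2.73 points (exact permutation p = 0.0119, limma adjusted p = 0.261), and over both MYCN states -2.13 points (exact permutation p = 0.00383, limma adjusted p = 0.19). The difference for knockdown over both MYCN states kept its sign in 28 of 28 alternative settings. Its adjusted p there ran from 0.135 to 0.399.

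The 109-base SRSF11 exon lay lower, at 1.71%, 2.62% and 2.99% in wildtype and 1.95%, 1.51% and 2.03% in MYCN+/SNRPD3+. Over the 12 knockdown libraries it ranged from 0.976% to 1.88%, and 4 of the 6 control libraries lay above all of these. The difference for knockdown was -0.63 points (exact permutation p = 0.00567, limma adjusted p = 0.261). The intron that joins the 109-base exon to the 117-base exon (chr1:70231204-70231858), whose use puts both into 1 transcript, had the smallest knockdown p of the gene. It was used in 1.57% to 2.86% of reads in the 6 control libraries and 0.555% to 1.60% in the 12 knockdown libraries, a difference of -0.90 points (exact permutation p = 0.000425; -0.54 ± 0.13 log2 odds (SE), limma adjusted p = 0.249). Control and knockdown libraries overlapped only between 1.57% and 1.60%.

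The SRSF11 measures whose skipping intron starts or ends at another poison exon did not all follow this. The 62-base exon, measured only against direct joining of the upstream coding exon to the 109-base exon, was included at 44.3%, 24.7% and 37.7% in wildtype and 51.7%, 45.4% and 46.0% in MYCN+/SNRPD3+. Every MYCN+/SNRPD3+ library lay above every wildtype library, a difference of 12.1 points (exact permutation p = 0.1, the smallest possible; limma adjusted p = 0.688). In MYCN+/SNRPD3- it ranged from 34.6% to 40.2% and in MYCN-/SNRPD3- from 23.6% to 51.4%. For knockdown with MYCN expressed the difference was -10.2 points, without overlap (exact permutation p = 0.0119, limma adjusted p = 0.511), and over both MYCN states -2.07 points. The 109-base exon, measured against joining of the upstream coding exon to the 117-base exon, had 48.3% on average and a knockdown difference of -4.50 points (limma adjusted p = 0.424). The 117-base exon, measured against joining of the 109-base exon to the next coding exon, had 90.5% on average. Its knockdown difference was -4.06 points (limma adjusted p = 0.33). This measure takes in the intron out of the 117-base exon, which transcripts without the 109-base exon also use. It is therefore not a share of transcripts with the 109-base exon.

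The intron that skips all SRSF11 poison exons (chr1:70228556-70232267) was used in 81.2%, 78.1% and 72.5% of reads in wildtype and 76.7%, 81.5% and 78.1% in MYCN+/SNRPD3+. In MYCN+/SNRPD3- it was 83.7%, 84.8% and 91.0% with siRNA #1 and 84.2%, 86.8% and 87.7% with siRNA #2. All 6 of these lay above all 6 control libraries. The difference from wildtype was 9.11 points (exact permutation p = 0.0119; 0.87 ± 0.23 log2 odds (SE), limma adjusted p = 0.128), the largest in points among the skipping introns of these genes. Over both MYCN states knockdown gave 6.27 points (exact permutation p = 0.00128, limma adjusted p = 0.327), and 5.53 points without the 2 libraries that stood apart. The intron out of the last poison exon (chr1:70231976-70232267) was used in 7.78%, 10.1% and 11.9% of reads in wildtype and from 3.69% to 7.51% in MYCN+/SNRPD3-, without overlap (limma adjusted p = 0.181).

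**Figure D3:**
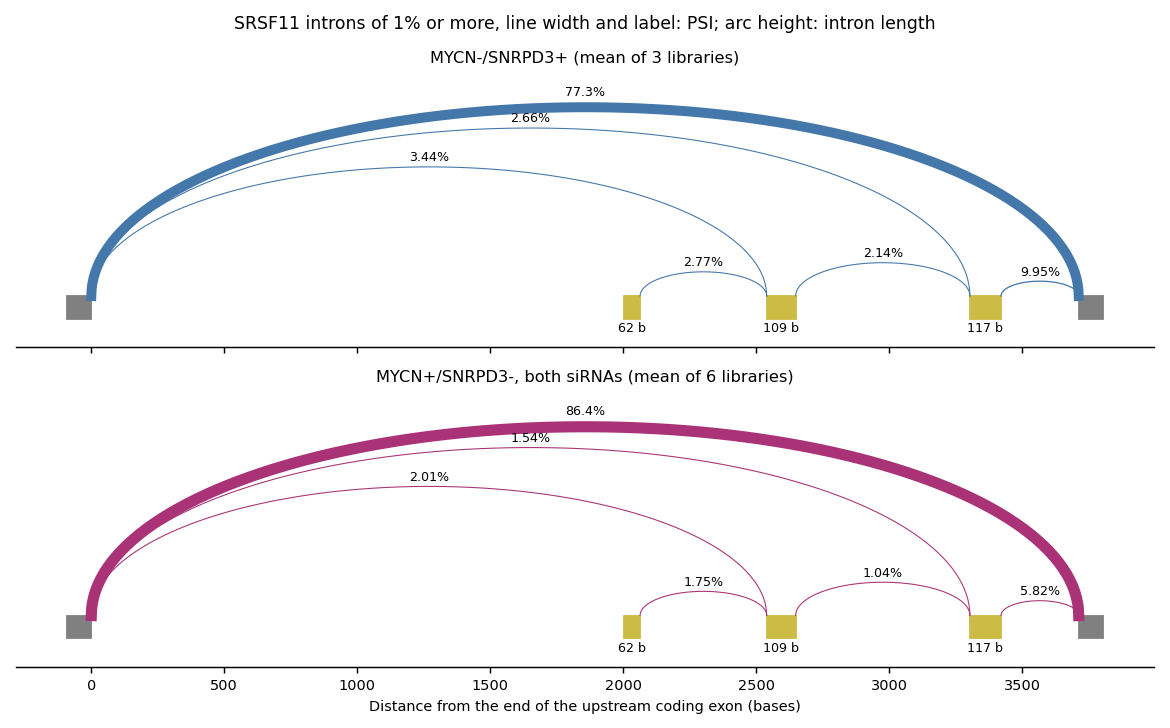
Introns of the SRSF11 cluster used in 1% of reads or more, drawn to scale as distance in bases from the end of the upstream coding exon, with mean PSI as line width and label; grey boxes are ends of coding exons and yellow boxes the poison exons of 62, 109 and 117 bases. The skipping intron holds 77.3% in the 3 wildtype libraries and 86.4% in the 6 MYCN+/SNRPD3- libraries, and each of the 5 introns into or out of the poison exons holds less in MYCN+/SNRPD3-.

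SRSF4, a larger classical SR protein, has its poison exons inside a coding intron of 21128 bases. That intron (chr1:29160518-29181645) was used in 83.3%, 71.1% and 77.2% of reads in wildtype, 79.8%, 82.0% and 82.2% in MYCN+/SNRPD3+ and from 79.7% to 89.4% in MYCN+/SNRPD3-. One wildtype library lay within the MYCN+/SNRPD3- range, and the difference was 7.85 points (exact permutation p = 0.0238, limma adjusted p = 0.336). The intron into the first of these exons (chr1:29168639-29181645) was used in 2.5%, 3.96% and 3.47% of reads in wildtype, 2.69%, 2.74% and 4.51% in MYCN+/SNRPD3+ and from 0.845% to 2.09% in MYCN+/SNRPD3-. These libraries lay below all 6 control libraries. Knockdown over both MYCN states gave -1.45 points (exact permutation p = 0.00326; -0.66 ± 0.22 log2 odds (SE), limma adjusted p = 0.442), the smallest knockdown p of the gene. The introns beyond it, 29160518-29165889 and 29166065-29166728, held 7.26% and 6.30% on average and overlapped between all groups, with limma adjusted p-values of 0.661 and 0.552 for MYCN and knockdown together.

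SRSF6 had the highest mean inclusion among the 10 exons measured against joining of coding exons, at 19.0%. Inclusion was 17.2%, 16.6% and 23.2% in wildtype and 24.4%, 16% and 15.6% in MYCN+/SNRPD3+, and the 12 knockdown libraries ranged from 11.9% to 26.8%. Knockdown libraries overlapped control libraries in both MYCN states, and knockdown gave 0.33 points (limma, 0.02 ± 0.19 log2 odds (SE), adjusted p = 0.97). The values were set apart more by siRNA. Libraries with siRNA #1 held 14.6%, 15.8% and 17.7% in MYCN- and 19.9%, 20.3% and 11.9% in MYCN+ cells, and those with siRNA #2 held 19.8%, 20.7% and 25.6% and 17.9%, 18.8% and 26.8%. The difference of siRNA #2 from siRNA #1 was 4.88 points (exact permutation p = 0.045, limma adjusted p = 0.74), with overlap between the siRNAs within MYCN+ and none within MYCN-. The intron out of the exon (chr20:43459421-43459770) held 29.1% of the reads on average, and 2.09% used the intron into it. The mean inclusion of 19.0%, and its rank among the 10 exons, therefore rested mainly on the intron out of the exon. The gene's smallest knockdown p belonged to a coding intron (chr20:43460599-43460702) at -0.24 ± 0.11 log2 odds (SE), with a limma adjusted p of 0.641.

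SRSF7, a zinc-knuckle SR protein close to SRSF3, included its poison exon at a narrow range of values. The 449-base exon was included at 5.80%, 5.27% and 5.27% in wildtype, and the other 15 libraries ranged from 4.50% to 6.86%. Knockdown over both MYCN states gave 0.23 points (exact permutation p = 0.484; 0.05 ± 0.12 log2 odds (SE)), and MYCN over all siRNAs 0.07 points (exact permutation p = 0.818). The intron into that exon (chr2:38749347-38749528) held 7.18% on average, with a knockdown difference of -0.09 points. A 36-base coding exon of SRSF7 (chr2:38746144-38746179), which keeps the frame, was included at 82.3% to 85.3% in the 6 control libraries and 71.7% to 84.3% in the 12 knockdown libraries. Knockdown gave -3.36 points (exact permutation p = 0.038, limma adjusted p = 0.356), and without the 2 libraries that stood apart, which held the lowest values of 71.7% and 74.9%, -2.04 points (adjusted p = 0.558). The intron that skips it (chr2:38745188-38746693) had the smallest knockdown p of the gene, with 0.28 ± 0.13 log2 odds (SE) and a limma adjusted p of 0.635.

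SRSF1, the founding SR protein ASF/SF2 and a known oncoprotein, had no poison exon whose 3 introns shared a cluster. An intron in its 3′ UTR (chr17:58004002-58004922), annotated only in an NMD transcript, was used in 84.2%, 82.4% and 88.3% of its cluster's reads in wildtype and 85.0%, 88.7% and 89.9% in MYCN+/SNRPD3+. In MYCN-/SNRPD3- it was 89.9%, 84.1% and 86.5% with siRNA #1 and 90.6%, 89.4% and 95.8% with siRNA #2. In MYCN+/SNRPD3- it was 88.0%, 87.6% and 93.7% with siRNA #1 and 91.3%, 92.6% and 94.4% with siRNA #2. The values overlapped between knockdown and control, and knockdown over both MYCN states gave 3.91 points (exact permutation p = 0.0281, limma adjusted p = 0.53). Libraries with siRNA #2 were 4.04 points above those with siRNA #1 (exact permutation p = 0.04, limma adjusted p = 0.878). This PSI is set against another intron of the cluster (chr17:58003719-58004922) that is in no coding transcript. It is therefore not a share of all SRSF1 transcripts. The gene's smallest knockdown p belonged to a join of annotated sites that is not itself annotated (chr17:58005042-58005800), used in 1.26% to 2.05% of reads in control libraries and 1.84% to 3.25% in knockdown libraries (0.40 ± 0.13 log2 odds (SE), limma adjusted p = 0.385).

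SRSF5, an SR protein also known as HRS, gave the clearest separation by knockdown. Its first cluster joins 3 alternative 5′ splice sites to 1 acceptor. The intron from the 5′ splice site nearest the acceptor of these (chr14:69767381-69768137), found in coding and noncoding transcripts, was used in 10.8%, 11% and 8.98% of reads in wildtype and 10.0%, 10.9% and 11.2% in MYCN+/SNRPD3+. In MYCN-/SNRPD3- it was 13.1%, 13.2% and 13.4% with siRNA #1 and 13.7%, 13.9% and 14.1% with siRNA #2. In MYCN+/SNRPD3- it was 12.5%, 13% and 18.3% with siRNA #1 and 14.1%, 15.1% and 18.7% with siRNA #2.

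All 12 knockdown libraries used this SRSF5 intron more than all 6 control libraries, and it was the 1 intron of these genes that separated them. The difference was 3.95 points (exact permutation p = 0.000142, the smallest possible; 0.48 ± 0.10 log2 odds (SE)), but the limma adjusted p over all introns was 0.207. Without the 2 libraries that stood apart, which held the highest values of 18.3% and 18.7%, it was 3.14 points with an adjusted p of 0.169. Both siRNAs and both MYCN states showed the direction, with 3.32 points in MYCN- and 4.57 points in MYCN+ cells. The main intron of the cluster (chr14:69767256-69768137) was lower by a similar amount, from 58.4% to 63.3% in control and 50.6% to 60.9% in knockdown libraries (-3.78 points, exact permutation p = 0.0116, limma adjusted p = 0.571). The third, from a site 4 bases away (chr14:69767252-69768137), differed by 0.01 points. In the next cluster the coding intron chr14:69769252-69770466 held 98.7%, 98.7% and 98.1% in wildtype and from 93.9% to 97.3% in MYCN+/SNRPD3-, without overlap (exact permutation p = 0.0595, limma adjusted p = 0.194).

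**Figure D4:**
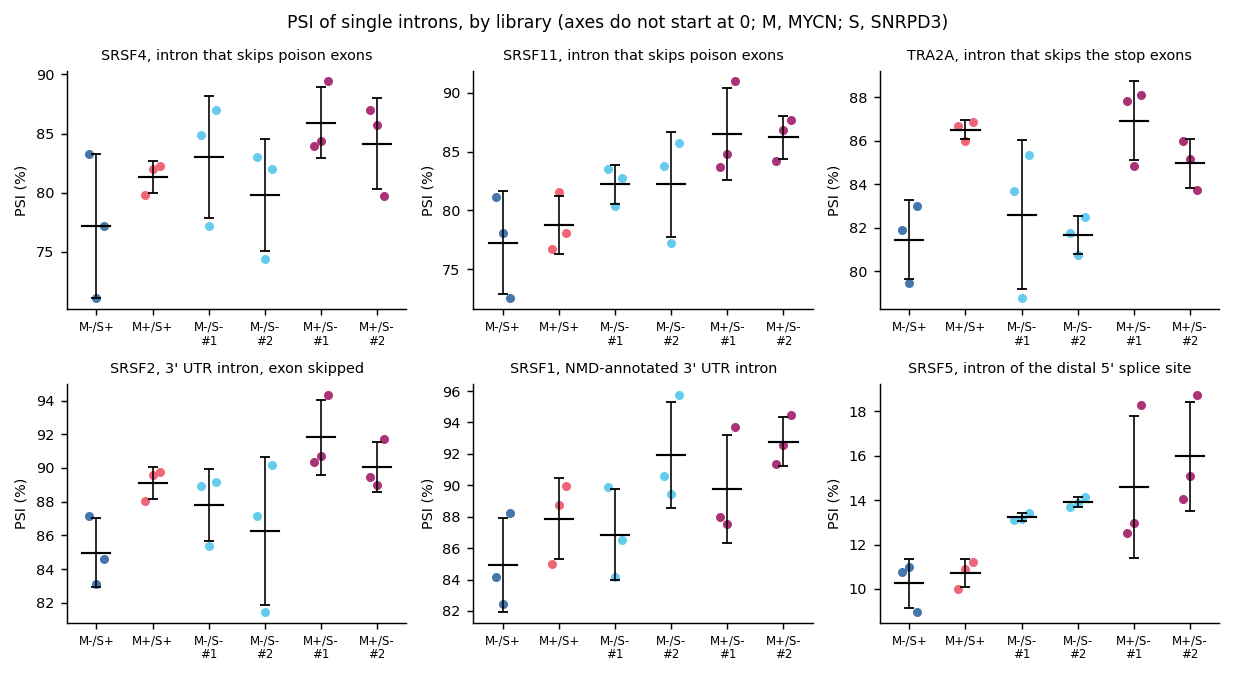
PSI (%) of 6 introns of SR protein genes, with 1 point per library (3 per group), the group mean as a bar and the SD as whiskers; the axes do not start at 0. For SRSF5 the 12 SNRPD3- libraries (12.5% to 18.7%) lie above the 6 SNRPD3+ libraries (8.98% to 11.2%), and for TRA2A the higher groups are those with MYCN expressed. The SRSF5 panel, titled distal, shows chr14:69767381-69768137, the shortest of the 3 introns that share its acceptor.

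TRA2A and TRA2B encode the transformer-2 proteins, SR-like activators that bind GAA-rich exons and cross-regulate each other. The 312-base TRA2A exon was included at 6.95%, 8.88% and 6.38% in wildtype and 5.06%, 4.81% and 4.81% in MYCN+/SNRPD3+. With knockdown in MYCN- cells it was 6.64%, 8.96% and 5.89% for siRNA #1 and 6.86%, 7.30% and 6.04% for siRNA #2. With knockdown in MYCN+ cells it was 4.13%, 6.12% and 3.69% for siRNA #1 and 4.81%, 6.09% and 5.34% for siRNA #2. MYCN+ libraries were lower on average with each siRNA, and the states overlapped only between 5.89% and 6.12%. The difference was -2.12 points (exact permutation p = 0.001; -0.47 ± 0.13 log2 odds (SE), limma adjusted p = 0.0503), while knockdown over both states gave -0.16 points (exact permutation p = 0.755).

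The intron from the 312-base TRA2A exon to the next coding exon (chr7:23521841-23522120) was the only intron of the 10 genes to pass the threshold in any of the 8 comparisons. It was used in 6.12%, 5.6% and 5.42% of reads in wildtype and 3.81%, 3.47% and 4.06% in MYCN+/SNRPD3+. The MYCN-/SNRPD3- libraries held 4.94%, 6.30% and 4.32% with siRNA #1 and 4.74%, 6.51% and 4.36% with siRNA #2, and the MYCN+/SNRPD3- libraries 3.17%, 3.52% and 3.35% with siRNA #1 and 3.49%, 4.64% and 4.45% with siRNA #2. MYCN+ libraries lay below all MYCN- libraries with control siRNA and with siRNA #1, and overlapped them with siRNA #2. It fell by 1.60 points over all siRNAs (exact permutation p = 0.00075; -0.44 ± 0.10 log2 odds (SE), limma adjusted p = 0.0445). The call was close to the threshold: without the 2 libraries that stood apart the adjusted p was 0.11, and leaving out single libraries kept it in 2 of 18 cases.

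The intron that skips the TRA2A stop exons (chr7:23521841-23531788) was used more in MYCN+ cells without passing the threshold, at 81.9%, 79.5% and 83.0% in wildtype and 86.7%, 86.0% and 86.9% in MYCN+/SNRPD3+. Over all siRNAs the MYCN difference was 4.22 points (exact permutation p = 0.0005, limma adjusted p = 0.0506) and the knockdown difference 0.06 points. The intron into the exon (chr7:23522433-23531788), found in an NMD transcript, held 6.20% on average, with a MYCN difference of -1.88 points (exact permutation p = 0.00875, limma adjusted p = 0.252). The 301-base form of the exon, which uses a 3′ end 11 bases short, had -1.37 points for MYCN over all siRNAs (limma adjusted p = 0.0964) and the 90-base exon -0.37 points (limma adjusted p = 0.476). Both forms share the intron into the exon, so their measures are not independent. The intron out of the 301-base form alone (chr7:23521841-23522131) differed by -0.26 points. The gene's smallest knockdown p was at a coding intron (chr7:23505811-23506137) with 0.14 ± 0.12 log2 odds (SE) and a limma adjusted p of 0.883.

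TRA2B showed a smaller MYCN difference in its 276-base poison exon. Inclusion was 7.43%, 9.26% and 10.2% in wildtype, 8.96%, 6.83% and 5.62% in MYCN+/SNRPD3+, 7.45% to 12.3% in MYCN-/SNRPD3- and 4.75% to 9.36% in MYCN+/SNRPD3-. All groups overlapped. MYCN over all siRNAs gave -1.61 points (exact permutation p = 0.0485, limma adjusted p = 0.324) and knockdown 0.45 points (exact permutation p = 0.577). The intron into the exon (chr3:185931853-185937824) held 2.14%, 2.53% and 2.05% in wildtype and 1.54%, 1.49% and 1.57% in MYCN+/SNRPD3+, and MYCN over all siRNAs gave -0.62 points (exact permutation p = 0.001, limma adjusted p = 0.0885). The gene's smallest knockdown p was at an intron that skips both this exon and the next (chr3:185925627-185937824), at 0.25 ± 0.13 log2 odds (SE) with a limma adjusted p of 0.698.

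**Figure D5:**
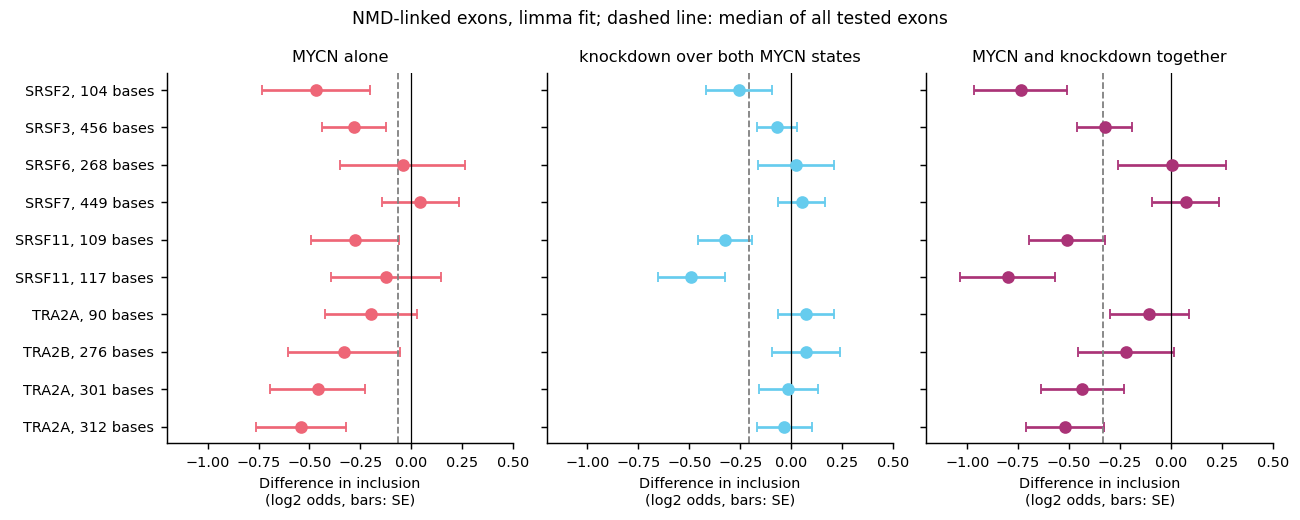
Difference in inclusion (log2 odds, point, with SE as bars) of the 10 stop-bringing or junction-adding exons of SR protein genes in 3 comparisons that share libraries, with the median of all tested exons as a dashed line. SRSF11 has the lowest values for knockdown over both MYCN states, and for MYCN alone 9 of the 10 are below 0, with SRSF6 and SRSF7 nearest to 0. The TRA2A exons among the 10 were added after their values were seen, and without them 6 of 7 are below 0 for MYCN alone.

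Of 35 other genes of the SR protein pathway, chosen with earlier results known, 32 had tested introns, 360 in all. For MYCN and knockdown together 7 introns passed the threshold, beside 0.559% of all introns, 2 higher and 5 lower, in SON, a nuclear speckle protein, in LUC7L and LUC7L3, relatives of a U1 snRNP protein, and in SNRNP70, the U1-70K protein. For MYCN over all siRNAs 8 passed, beside 1.23% of all introns, 2 higher and 6 lower, and these also involved BCLAF1 and the SR protein kinase SRPK1. In the list limma gave 0 calls in the other 6 comparisons. The share of the list with an unadjusted p below 0.05 was 5.83% for MYCN alone (6.19% of all introns), 5.56% for knockdown with MYCN repressed (4.69%), 14.7% with MYCN expressed (7.06%) and 17.5% over both states (7.80%). It was 2.78% for the interaction (3.98%) and 6.67% for the siRNAs (5.38%).

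Examples were chosen after their values were seen. The SON intron chr21:33569088-33573307 was used in 80.1% ± 2.16 (SD, n = 3) of reads in wildtype, 85.5% ± 0.336 in MYCN+/SNRPD3+, and 91.1% ± 1.65 and 89.5% ± 1.17 in MYCN+/SNRPD3- with siRNA #1 and #2. It rose against wildtype by 1.14 log2 odds (limma adjusted p = 0.0283). In SNRNP70, whose own poison exon is a known control point, the intron chr19:49101472-49102113 fell from 3.49% ± 0.532 (SD, n = 3) in wildtype to 0.783% ± 0.223 and 1.23% ± 0.168 with each siRNA in MYCN+ cells (limma adjusted p = 0.0465). Introns of this list were not sorted by class, so whether this intron borders that poison exon was not examined.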

How the data were processed

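The authors aligned paired 100-base reads of stranded mRNA libraries to hg38 with STAR 2.5.0a, used SAMtools 1.3.1 and ran leafcutter with GENCODE release 28. In the deposited table PSI is a fraction of the cluster's split reads for every library, with no read counts, so depth is unknown. All 18 columns were matched to libraries and 0 were left unmatched. The authors' deposited table of their own comparisons (FDR and delta PSI) was not used.

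Introns were classed with GENCODE release 44 (127076 matched an annotated intron). A poison exon was an internal exon of an NMD transcript that is in no coding transcript and lies within a coding intron. The log odds log2((x + 0.01)/(1 - x + 0.01)) of 152722 introns and 17562 exons with a mean from 0.01 to 0.99 were fitted with limma 3.58.1 in R 4.3.3, with 6 groups in 1 fit, Benjamini-Hochberg adjustment over all features and a threshold of 0.05. A limma fit was used in place of leafcutter's count test because no counts were given. Python 3.11.15, scipy 1.17.1, numpy 2.4.6, pandas 2.3.3, pysam 0.24.0 and matplotlib 3.10.9 did the rest. Named were all 10 genes, every poison exon with 3 introns in 1 cluster, NMD-only introns with a mean PSI of at least 5%, each called member and, per gene, the intron with the smallest knockdown p. Tested on simulated shifts of 1, 2 and 4 log2 odds for knockdown over both MYCN states, limma called 24%, 59.5% and 78.5% of 200 introns among 152722 and 25.5%, 66% and 92.5% of 200 exons among 17562. Members, lists and tests were chosen with earlier results of these data known. The comparison of the siRNAs, the permutations for MYCN over all siRNAs, the TRA2A exons, counts of groups that do not overlap and fits without 2 libraries were added after seeing the data.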

Additional observations from a re-analysis of the deposited data

How the results depend on the processing

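Of the recomputed counts of called introns and exons of these genes, 401 stayed within 1.5 times the reported count and 33 did not. All reported counts but 1 were 0, so most counts that stayed were 0 in both, which says little about stability. For MYCN over all siRNAs, the 1 called intron became 0 with no filter on the mean, with siRNA #1 only, with siRNA #2 only and without the 2 libraries that stood apart, and 0 to 2 when each library was left out in turn. With an offset of 0.05, with a mean from 0.05 to 0.95 and with the difference of fractions the count stayed at 1. The intron called there was another, the TRA2A skipping intron (chr7:23521841-23531788). The 0 called exons of that comparison became 1 with an offset of 0.05, with no filter, with a mean from 0.05 to 0.95, with the difference of fractions and with the downstream flanking intron only, and 0 to 2 when each library was left out. In the 5 settings with 1 exon it was the 312-base TRA2A exon, and 2 exons came without replicate 2 of MYCN+/SNRPD3- siRNA #1. For MYCN and knockdown together the 0 called exons became 0 to 1 when each library was left out, the 117-base SRSF11 exon without replicate 1 of MYCN+/SNRPD3- siRNA #1 (adjusted p = 0.0466) or replicate 2 of MYCN-/SNRPD3- siRNA #2 (adjusted p = 0.0463). A fit of the compared groups alone is the fit already used where a comparison takes all 6 groups.

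With the replicate number as a block, MYCN over all siRNAs called 3 introns and 3 exons, and MYCN and knockdown together 2 introns, both of SRSF5, and 1 exon, that of SRSF2 (limma adjusted p = 0.0366). Correlations between replicates of the same number were small, from -0.0509 to 0.0638 over introns and -0.0649 to 0.0926 over exons. Their means were 0.0062 and 0.0139, beside -0.0031 and -0.0069 for replicates of different numbers. However, 14 and 15 of 18 libraries correlated best with their own number. The numbers were not taken as pairs, so the main fit did not account for any part shared by replicates of a number. Over all genes the block raised called exons from 0 to 141 for knockdown over both states and from 1043 to 1442 for both together. Leaving out single libraries gave 210 to 1157 called exons and 202 to 866 called introns for both together, and leaving out the 2 libraries that stood apart gave 224 exons and 325 introns. For both together, called introns went from 854 to 1346 with the block, 536 with a mean from 0.05 to 0.95, 526 with the difference of fractions, 426 with only the groups compared, 425 with siRNA #1 and 168 with siRNA #2. Called exons went from 1043 to 38 with only the groups compared, 684 and 172 with siRNA #1 and #2, and 530 with the upstream flanking intron. For MYCN over all siRNAs, called introns went from 1875 to 1136 with a mean from 0.05 to 0.95, 509 and 513 with siRNA #1 and #2, and 1100 without the 2 libraries, and called exons from 887 to 146, 161 and 429 in those last 3 settings and 503 with the upstream flanking intron. Backgrounds of the smaller comparisons moved over wider ratios, single libraries left out included, between 51 and 581 introns and 0 and 50 exons for MYCN alone, 2 and 156 introns and 0 and 6 exons for knockdown with MYCN repressed, 4 and 172 introns and 0 and 43 exons with MYCN expressed, and 16 and 69 introns for knockdown over both states. They also moved between 1 and 52 introns and 0 and 3 exons for the interaction and 10 and 68 introns and 0 and 8 exons for the siRNAs. The unknown depth limits all low PSI values.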
